A study of Homo sapiens with 9 samples.

Results

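The BCL2 family genes measured here were BCL2L11, BMF, BBC3, PMAIP1, BIK and HRK, which encode BH3-only activators of apoptosis, BAX and BAK1, which encode the effectors, and BCL2L1 and MCL1, which encode anti-apoptotic members. They were taken by gene name, and the list was drawn up with earlier results of these data known. Every non-control probe on the array whose gene name was one of these 10 was used. This gave 14 probes in 32 spots, among 36337 gene names and 50599 probes in all. The cells were RKO, a colorectal cancer line, and their total RNA was hybridized in 1 colour to 9 arrays of the SurePrint G3 Human GE v2 design. UHRF1, the protein that brings the maintenance DNA methyltransferase to newly replicated DNA, was depleted by siRNA, and histone deacetylases were inhibited with trichostatin A (TSA). In siCONT the cells carried a control siRNA for 72 h and then ethanol (mock) for 24 h. In siUHRF1 they carried a UHRF1 siRNA and then ethanol for the same times, in siCONT + TSA the control siRNA and then 300 nM TSA, and in siUHRF1 + TSA a UHRF1 siRNA and then 300 nM TSA. Each of these 4 groups had 2 arrays. All 8 arrays thus came from transfected cells, and the 2 arrays of each UHRF1-depleted group carried different siRNAs, siUHRF1-1 in replicate 1 and siUHRF1-2 in replicate 2. The fifth condition was a single array of untransfected cells kept in 1 µM 5-aza-dC, a DNA methyltransferase inhibitor, for 72 h. No source states that the 2 arrays of a control siRNA group came from separate cultures, so the spread between them may be technical. In the UHRF1-depleted groups the spread also holds the difference between the siRNAs. The p-values measure the spread between these arrays, taken over all groups together.

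Proteins of the BCL2 family decide whether the outer membrane of the mitochondrion is opened during apoptosis. The effectors BAX and BAK form pores in that membrane, anti-apoptotic members such as BCL-XL (the product of BCL2L1) and MCL1 bind and restrain them, and BH3-only proteins release the restraint or activate the effectors directly. Transcripts of several BH3-only genes are short-lived and respond to stress, and BH3-only genes are among those that histone deacetylase inhibitors are known to affect in tumour cells.

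The gene starts of these members differed widely in CpG content, the substrate of DNA methylation. RefSeq sequences on GRCh38.p14 were matched by symbol for 8 of the 10 members, all but BIK and MCL1, with 10 promoters between them. In the 250 bases before the gene start the CpG count was 36 for PMAIP1, 34 for BCL2L11, 25 for BAX, 22 for HRK, 5 for BAK1 and 4 for BBC3, 12 and 17 in the promoters of BCL2L1, and 0 and 26 in those of BMF. The median was 19.5, compared with 11 over all 35114 promoters, whose quartiles were 3 and 23. The promoters of 3 members whose signal is described below are printed from 5′ to 3′ in the direction of transcription, with each CpG in capitals, because they span this range: PMAIP1 from chr18:59899746-59899995 on the plus strand, BBC3 from chr19:47232668-47232917 on the minus strand and BAK1 from chr6:33580277-33580526 on the minus strand.
PMAIP1: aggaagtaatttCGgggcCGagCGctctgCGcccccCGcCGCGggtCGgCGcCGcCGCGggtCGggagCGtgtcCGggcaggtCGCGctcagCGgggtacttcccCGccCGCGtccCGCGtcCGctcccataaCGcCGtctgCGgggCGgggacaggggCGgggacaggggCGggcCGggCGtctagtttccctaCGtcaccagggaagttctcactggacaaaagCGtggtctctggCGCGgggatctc
BBC3: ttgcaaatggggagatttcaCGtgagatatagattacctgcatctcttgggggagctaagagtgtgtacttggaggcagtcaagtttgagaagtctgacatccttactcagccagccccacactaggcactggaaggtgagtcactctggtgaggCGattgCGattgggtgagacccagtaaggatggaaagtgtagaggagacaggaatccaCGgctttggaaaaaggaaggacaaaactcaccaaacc
BAK1: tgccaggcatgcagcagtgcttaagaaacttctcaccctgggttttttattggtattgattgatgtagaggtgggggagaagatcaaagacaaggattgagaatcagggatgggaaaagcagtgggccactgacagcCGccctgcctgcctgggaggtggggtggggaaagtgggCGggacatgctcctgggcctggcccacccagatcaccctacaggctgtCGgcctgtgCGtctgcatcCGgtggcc
Of all promoters, 95.2% held fewer CpG sites than that of PMAIP1, 34.3% fewer than that of BAK1 and 29.3% fewer than that of BBC3. Searched on both strands, the GC box GGGCGG stood in 6 of the 10 member promoters, 4 copies of it before PMAIP1, and in 42.6% of all promoters. The E-box CACGTG stood in 2 of the 10, with 4 copies before BAX and 1 before BBC3, and in 6.35% of all. The cyclic AMP response element TGACGTCA was in none of the 10 and in 1.65% of all. The methylation of these windows was not measured on the arrays.

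**Figure D1:**
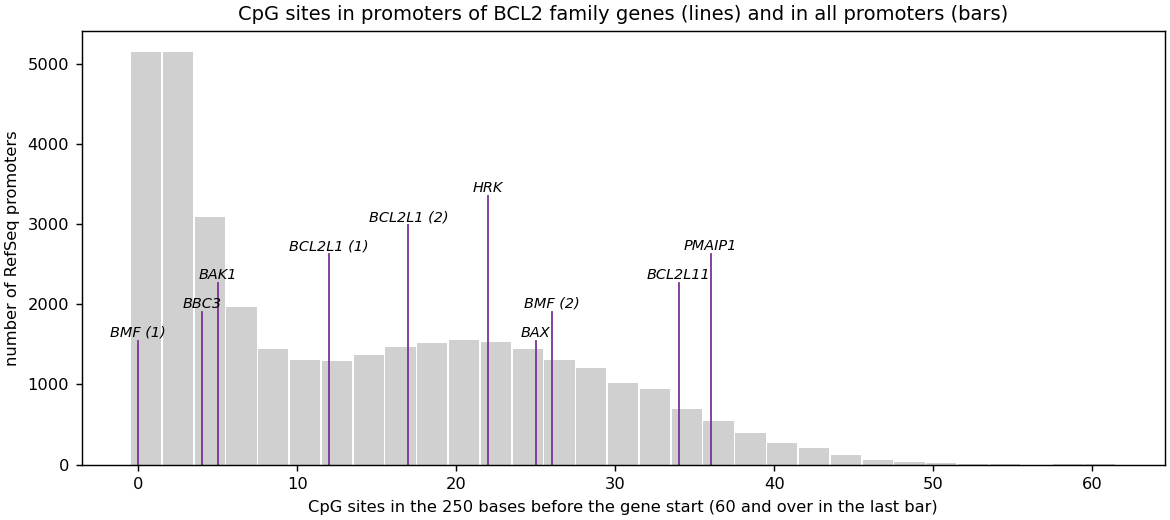
Number of CpG sites in the 250 bases before the gene start (x axis) against the number of RefSeq promoters with that count (y axis, bars), with the member promoters drawn as labelled lines. PMAIP1 and BCL2L11 lie at 36 and 34 sites in the upper tail, whereas BBC3 and BAK1 lie at 4 and 5, under the median of 11.

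Signals are given as log2 values relative to the 75th percentile of the same array, which ranged from 245.3 to 337.9 for the transfected cells and was 821.6 for 5-aza-dC. The share of spots well above background ranged from 46.8% to 49.6% and was 54.9% for 5-aza-dC, and no spot was saturated. Paired arrays of the same group differed by a median of 0.0699 in siCONT, 0.0756 in siCONT + TSA, 0.261 in siUHRF1 and 0.19 in siUHRF1 + TSA, so that the groups whose arrays carried different siRNAs spread most. The 8 siRNA arrays lay on 1 slide, with the mock arrays in row 1, the TSA arrays in row 2, siCONT in columns 1 and 2 and UHRF1-depleted cells in columns 3 and 4, and row and treatment cannot be told apart, nor column and siRNA. In siUHRF1, the 2 probes of UHRF1 itself fell by 2.34 and 2.47 on the log2 scale relative to siCONT (limma adjusted p = 0.00363 and 0.00238). Among markers of the labelled cell type, KRT8, KRT18 and CDX2 were well above background on 8 of 8 siRNA arrays, KRT19 on 2 and EPCAM on 1, and CDH1, VIL1 and LGR5 on none. Of 7 markers of other cell types, VIM, COL1A1 and CDH5 were well above background on 8, PTPRC on 5, COL1A2 on 2, and CD3E and PECAM1 on none.

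Of the 14 probes, 13 were well above background on all 9 arrays and 1, a second probe for BMF, on none, so that all 10 genes were measured in every condition and no gene was admitted through the group in which it was high. A gene with several probes is represented by its brightest. Each comparison was tested with limma over all probes, and a gene was called when the Benjamini-Hochberg adjusted p was below 0.05. Counts of called members are set beside the share of all 17738 gene names called in the same direction (20189 for 5-aza-dC). Because RNA came from whole cultures, less transcript per cell and fewer cells with the transcript cannot be told apart.

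**Figure D2:**
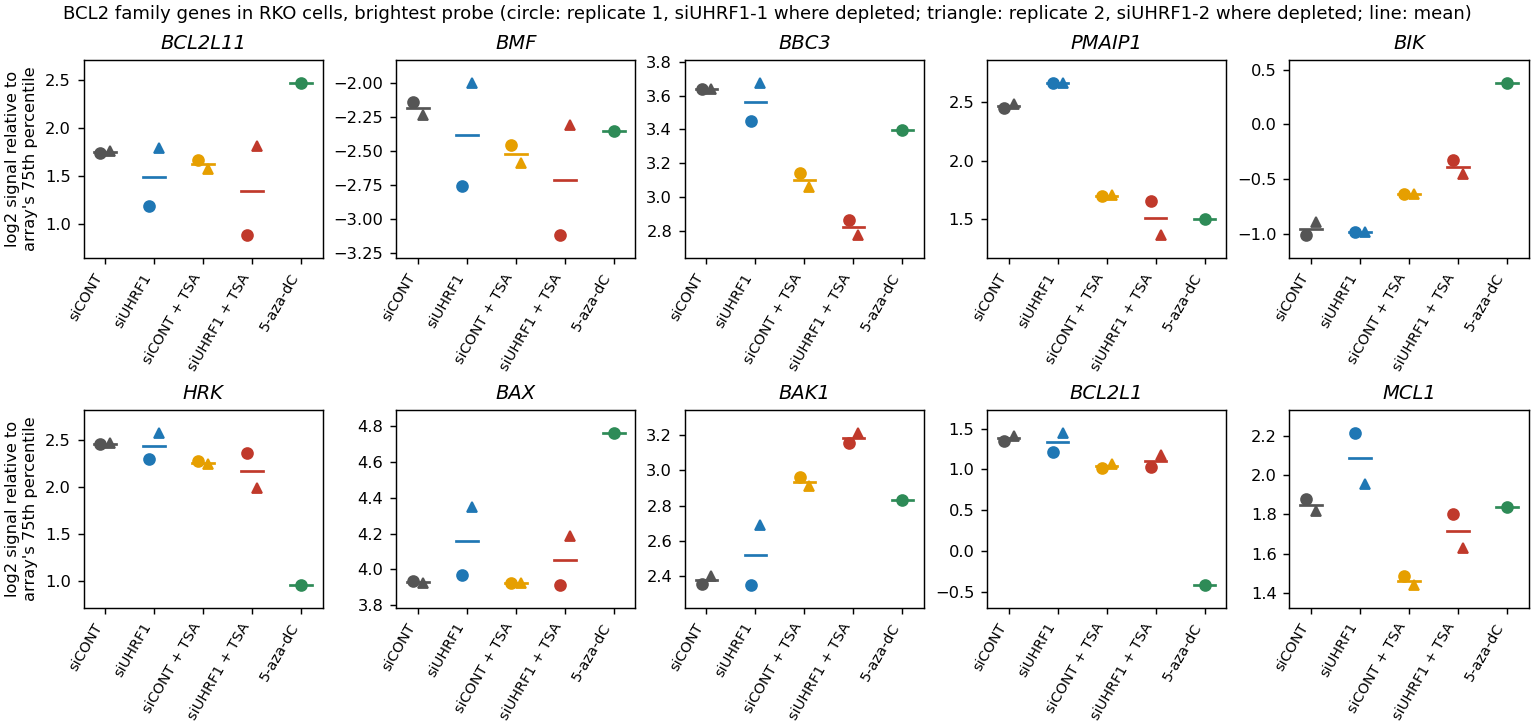
Log2 signal relative to the 75th percentile of the array (y axis) of the brightest probe of each member in the 5 conditions (x axis), with 1 symbol per array and a line at the mean. PMAIP1 lay between 2.45 and 2.67 on the 4 mock arrays and between 1.36 and 1.71 on the 4 TSA arrays, and BCL2L11 and BMF spread widest between the siRNAs of the UHRF1-depleted groups.

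TSA lowered the BH3-only genes PMAIP1 and BBC3 and raised the effector gene BAK1, with and without UHRF1 depletion. PMAIP1 encodes NOXA, a BH3-only protein that binds MCL1, and BBC3 encodes PUMA, a BH3-only protein that binds all anti-apoptotic members and is known as a p53 target. The PMAIP1 probe (chr18:57570691-57570750, hg19) gave 2.45 and 2.48 in siCONT, 2.66 and 2.67 in siUHRF1, 1.69 and 1.71 in siCONT + TSA and 1.66 and 1.36 in siUHRF1 + TSA. All 4 TSA arrays were below all 4 mock arrays. PMAIP1 was 1.7-fold lower in siCONT + TSA than in siCONT (log2 fold change -0.77, SE 0.118, adjusted p = 0.018), 2.23-fold lower in siUHRF1 + TSA than in siUHRF1 (-1.16, SE 0.118, adjusted p = 0.0043) and 1.94-fold lower in siUHRF1 + TSA than in siCONT (-0.96, SE 0.118, adjusted p = 0.00398). The first and second of these comparisons have no array in common, although all groups share 1 estimate of the spread.

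BBC3 (chr19:47724174-47724233, hg19) gave 3.64 and 3.64 in siCONT, 3.45 and 3.68 in siUHRF1, 3.14 and 3.06 in siCONT + TSA and 2.87 and 2.77 in siUHRF1 + TSA. The order of the groups was that of PMAIP1 under TSA, with both arrays of siUHRF1 + TSA lowest and both of siCONT + TSA next. BBC3 was 1.46-fold lower in siCONT + TSA than in siCONT (log2 fold change -0.54, SE 0.11, adjusted p = 0.0337) and 1.77-fold lower in siUHRF1 + TSA than in siCONT (-0.82, SE 0.11, adjusted p = 0.00505). Against siUHRF1, the fall in siUHRF1 + TSA was 1.67-fold (-0.74, adjusted p = 0.0114).

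BAK1 (chr6:33540585-33540644, hg19), which encodes the effector BAK, moved the other way. Its signal was 2.36 and 2.40 in siCONT, 2.35 and 2.69 in siUHRF1, 2.96 and 2.91 in siCONT + TSA and 3.15 and 3.21 in siUHRF1 + TSA. All 4 TSA arrays were above all 4 mock arrays, and the siUHRF1 + TSA arrays were above the siCONT + TSA arrays. The difference between these 2 TSA groups was 0.25 on the log2 scale and did not pass (limma adjusted p = 0.389). The rise was 1.47-fold in siCONT + TSA against siCONT (log2 fold change 0.55, SE 0.129, adjusted p = 0.047), 1.58-fold in siUHRF1 + TSA against siUHRF1 (0.66, adjusted p = 0.0238) and 1.75-fold in siUHRF1 + TSA against siCONT (0.80, adjusted p = 0.00873).

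BIK, which encodes a BH3-only protein that resides at the endoplasmic reticulum, was the other member that rose. Its probe (chr22:43525495-43525554, hg19) gave -1.01 and -0.89 in siCONT, -0.98 and -0.98 in siUHRF1, -0.64 and -0.63 in siCONT + TSA and -0.33 and -0.45 in siUHRF1 + TSA. The mock arrays of both siRNAs overlapped, and the TSA arrays lay above them. BIK rose 1.48-fold in siUHRF1 + TSA against siCONT (log2 fold change 0.56, SE 0.0964, adjusted p = 0.0106) and 1.51-fold against siUHRF1 (0.59, adjusted p = 0.0143). In siCONT + TSA its difference from siCONT was 0.32, which did not pass (adjusted p = 0.0901).

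**Figure D3:**
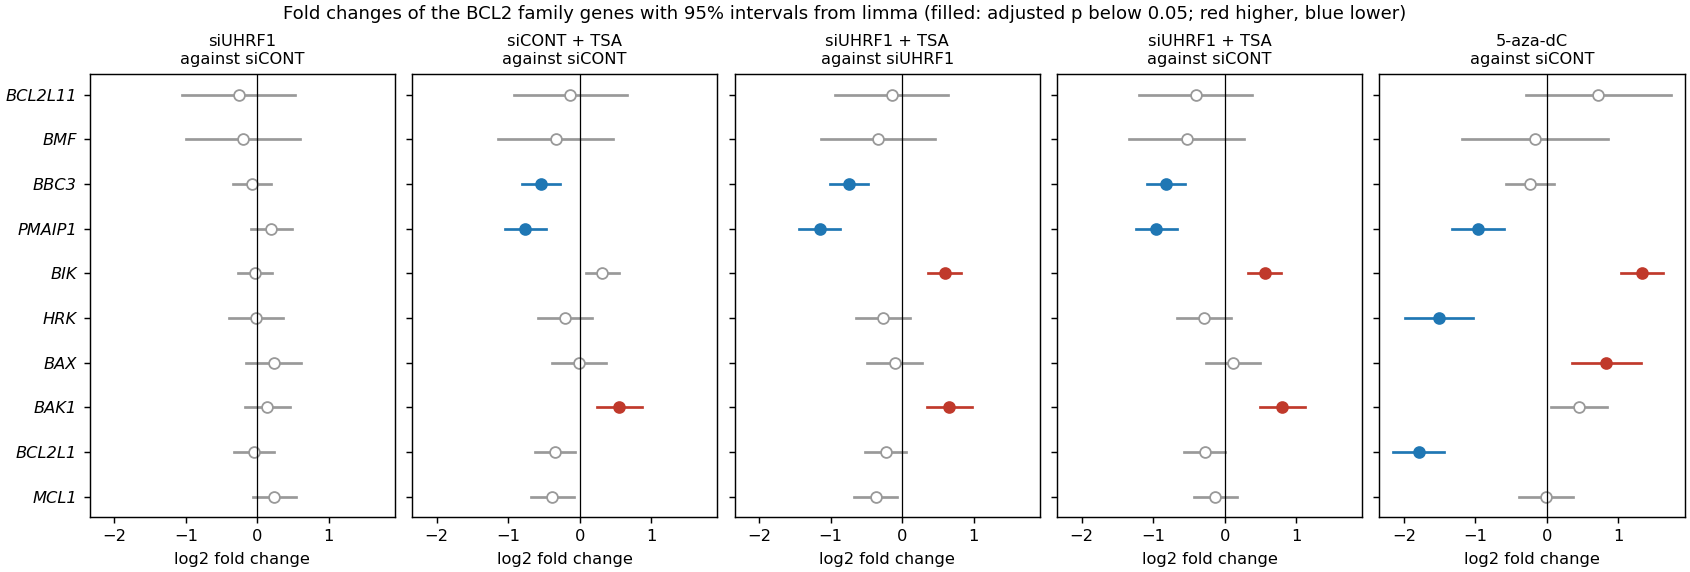
Log2 fold change of each member (x axis) with the 95% interval from limma, in a panel for each comparison, with filled symbols for an adjusted p below 0.05. PMAIP1 and BBC3 lie left of 0 and BAK1 right of 0 in every comparison of a TSA group with a mock group, whereas all intervals of siUHRF1 against siCONT reach across 0.

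In siUHRF1 + TSA against siCONT, 4 of 10 members were called, BIK and BAK1 higher and PMAIP1 and BBC3 lower. Over all gene names 16.1% were called higher and 8.08% lower there. Of the 6 that were not called, BMF, HRK, BCL2L1 and MCL1 had both arrays below both siCONT arrays, and their log2 differences lay between -0.53 for BMF (adjusted p = 0.291) and -0.13 for MCL1 (adjusted p = 0.479). The called PMAIP1 and BBC3 also lay below siCONT in this way, and BIK and BAK1 above, so that 8 of 10 members did not overlap siCONT. Over all gene names, called or not, 28.6% had both arrays below both siCONT arrays, and 42.1% had both above. BCL2L11 differed by -0.41 (adjusted p = 0.411), and BAX was the sixth. In siCONT + TSA against siCONT, 3 of 10 were called, BAK1 higher and PMAIP1 and BBC3 lower, against 6.97% and 3.86% of all gene names. In siUHRF1 + TSA against siUHRF1, 4 of 10 were called, the same 4 as against siCONT, against 10.8% higher and 5.49% lower. The median log2 fold change of the 10 members was -0.284 in siUHRF1 + TSA against siCONT, -0.27 in siCONT + TSA against siCONT and -0.25 in siUHRF1 + TSA against siUHRF1, where the medians of all gene names were 0.0671, 0.0824 and 0.0815. The first and second of these comparisons share the siCONT arrays.

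The calls in siUHRF1 + TSA against siCONT were kept by PMAIP1 and BBC3 in all 20 refits with other processing or with 1 library or 1 siRNA left out. BIK lost its call in 4 of them (adjusted p = 0.163 with normexp background correction, 0.181 with scaling on spike-in probes, and 0.0969 and 0.0601 without siCONT replicate 1 or 2), and BAK1 in 2, without siCONT replicate 1 or 2 (adjusted p = 0.0687 and 0.0602). The 3 calls in siCONT + TSA against siCONT were each lost when any 1 of the 4 arrays compared was left out, with adjusted p up to 0.199 for BBC3, 0.125 for PMAIP1 and 0.238 for BAK1, while the direction stayed. That of BAK1 was also lost without siUHRF1 + TSA replicate 1 or 2. All 3 were lost with spike-in scaling (adjusted p between 0.0682 and 0.111) and without the filter on dim probes (between 0.055 and 0.122). In siUHRF1 + TSA against siUHRF1, BBC3, BIK and BAK1 lost their calls with only the arrays of the groups compared (adjusted p = 0.103, 0.137 and 0.149). The call of BAK1 in siUHRF1 + TSA against siUHRF1 was lost in 10 of 20 refits, among them those without siCONT replicate 1 or 2, siCONT + TSA replicate 1 or 2 or siUHRF1 + TSA replicate 1 or 2 (adjusted p between 0.0617 and 0.0783), and that of BIK there in 4, among them that without siUHRF1 + TSA replicate 1 (adjusted p = 0.0548).

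The genes for anti-apoptotic members were lower on the TSA arrays of control cells without passing the test in the fit to all 8 arrays. With only the siCONT and siCONT + TSA arrays fitted, MCL1 and BCL2L1 passed (limma adjusted p = 0.0111 and 0.0141). That fit called 9928 probes, in place of 2470. MCL1 encodes a short-lived protein that holds BAK in check. Its probe (chr1:150547622-150547681, hg19) gave 1.88 and 1.82 in siCONT, 2.22 and 1.95 in siUHRF1, 1.49 and 1.44 in siCONT + TSA and 1.80 and 1.63 in siUHRF1 + TSA. With either siRNA the TSA arrays were below the mock arrays, and with or without TSA the UHRF1-depleted arrays were above their controls. The depleted arrays differed from their controls by 0.24 without TSA and 0.25 with TSA, and neither passed (limma adjusted p = 0.681 and 0.365). The log2 difference of siCONT + TSA from siCONT was -0.39 (95% interval -0.687 to -0.0856, adjusted p = 0.101), and that of siUHRF1 + TSA from siUHRF1 was -0.37 (adjusted p = 0.095). BCL2L1 (chr20:30253324-30253383, hg19, 10 spots) gave 1.35 and 1.41 in siCONT, 1.22 and 1.45 in siUHRF1, 1.02 and 1.06 in siCONT + TSA and 1.03 and 1.18 in siUHRF1 + TSA. The TSA arrays were below the mock arrays, by -0.34 in siCONT + TSA against siCONT (adjusted p = 0.115) and by -0.28 in siUHRF1 + TSA against siCONT (adjusted p = 0.135).

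HRK encodes a BH3-only protein known mainly from neurons. Its probe (chr12:117299053-117299112, hg19) gave 2.46 and 2.47 in siCONT, 2.30 and 2.58 in siUHRF1, 2.28 and 2.24 in siCONT + TSA and 2.36 and 1.99 in siUHRF1 + TSA. The arrays of each UHRF1-depleted group lay farther apart than those of a control group, and HRK was called in no comparison among the siRNA groups. BAX (chr19:49464904-49464963, hg19, 10 spots) gave 3.94 and 3.93 in siCONT, 3.97 and 4.35 in siUHRF1, 3.93 and 3.92 in siCONT + TSA and 3.91 and 4.19 in siUHRF1 + TSA. The 2 arrays with siUHRF1-2 stood above the other 6 siRNA arrays, which lay between 3.91 and 3.97.

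By their brightest probes, none of the 10 members changed detectably on UHRF1 depletion without TSA. In siUHRF1 against siCONT limma called 0 of 10, with 0 at an unadjusted p below 0.05, where it called 0.637% of all gene names. The t-test that the methods name found 1 at an unadjusted p below 0.05. By that t-test 1847 probes passed, where limma tested 23727. The groups did not overlap for PMAIP1 (log2 difference 0.20, adjusted p = 0.736), BAX (0.23, adjusted p = 0.783) and MCL1 (0.24, adjusted p = 0.681), each of which had both depleted arrays above both controls. Over all gene names 20.3% lay above the controls in this way and 17.0% below them. For these 3 genes the 95% intervals reached up to 0.485, 0.608 and 0.539, so rises of up to that size lie within the intervals. A dimmer BCL2L11 probe (chr2:111886352-111886411, hg19) had both depleted arrays below both controls. Its log2 difference was -0.32 (limma unadjusted p = 0.0441, adjusted p = 0.536), and no dimmer probe tested was called.

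Under TSA, UHRF1 depletion also gave no call. In siUHRF1 + TSA against siCONT + TSA limma called 0 of 10, with 2 at an unadjusted p below 0.05, BBC3 (log2 difference -0.28, adjusted p = 0.268) and BIK (0.25, adjusted p = 0.263), and 3.81% of all gene names were called. At an unadjusted p below 0.05, limma passed 4127 of all 23727 probes tested there. The methods' t-test also found 2 members at an unadjusted p below 0.05, where 3634 probes passed. The effect of UHRF1 depletion with TSA minus that without was tested itself, and limma called 0 of 10 members, with 0 at an unadjusted p below 0.05, against 0.361% of all gene names. It was widest for PMAIP1, whose difference between the effects was -0.39 (SE 0.168, unadjusted p = 0.0573, adjusted p = 1).

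The 2 UHRF1 siRNAs differed from each other in 3 members, BCL2L11, BMF and BAX. BCL2L11 encodes BIM and BMF encodes a related BH3-only protein, both held at the cytoskeleton through dynein or myosin motor complexes in healthy cells. For this comparison, chosen after these values were seen, each siRNA had its own term and TSA a common one in a fit to the 8 arrays, so that an siRNA is measured on 1 mock and 1 TSA array and TSA is assumed to act alike with every siRNA. The brightest BCL2L11 probe (chr2:111925892-111925951, hg19) gave 1.75 and 1.77 in siCONT, 1.67 and 1.58 in siCONT + TSA, 1.79 and 1.82 with siUHRF1-2 in mock and TSA, and 1.19 and 0.88 with siUHRF1-1 in mock and TSA. The arrays with siUHRF1-1 were thus below the other 6, which lay between 1.58 and 1.82. The log2 difference of siUHRF1-1 from siUHRF1-2 was -0.77 (SE 0.0922, adjusted p = 0.012) and that from siCONT -0.65 (SE 0.0798, adjusted p = 0.0129), whereas siUHRF1-2 differed from siCONT by 0.12 (adjusted p = 0.366). A second BCL2L11 probe, of another transcript (chr2:111878705-111878764, hg19), gave -0.35 and -0.039 with siUHRF1-1 and 0.43 to 0.64 on the other 6 arrays, and differed between the siRNAs by -0.72 (adjusted p = 0.0254). The third probe (chr2:111886352-111886411, hg19), for the same transcript as the second, did not follow them, with -1.83 and -1.28 for siUHRF1-1, -1.78 and -1.53 for siUHRF1-2 and a difference of 0.10 (adjusted p = 0.597).

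BMF (chr15:40380450-40380509, hg19) showed the same order of siRNAs. Its signal was -2.76 and -3.12 with siUHRF1-1 in mock and TSA, -2.0 and -2.31 with siUHRF1-2, -2.14 and -2.23 in siCONT and -2.46 and -2.59 in siCONT + TSA. In each medium the siUHRF1-1 array was below both control arrays and the siUHRF1-2 array above both. The siRNAs differed by -0.79 (SE 0.0744, adjusted p = 0.00804), and siUHRF1-1 differed from siCONT by -0.59 (adjusted p = 0.0109). BAX was lower with siUHRF1-1 than with siUHRF1-2 (log2 difference -0.33, SE 0.0667, adjusted p = 0.0329), and it was siUHRF1-2 that differed from siCONT (0.34, adjusted p = 0.0194), while siUHRF1-1 differed by 0.014 (adjusted p = 0.886). The second BAX probe (chr19:49464454-49464513, hg19) differed between the siRNAs by -0.38 (adjusted p = 0.101). From siCONT it differed by 0.17 with siUHRF1-2 (adjusted p = 0.34) and by -0.21 with siUHRF1-1 (adjusted p = 0.24). It thus does not show which siRNA differed. MCL1 was higher with siUHRF1-1 than in siCONT (0.36, SE 0.0543, adjusted p = 0.0206), and the siRNAs differed in it by 0.22 (adjusted p = 0.0706).

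**Figure D4:**
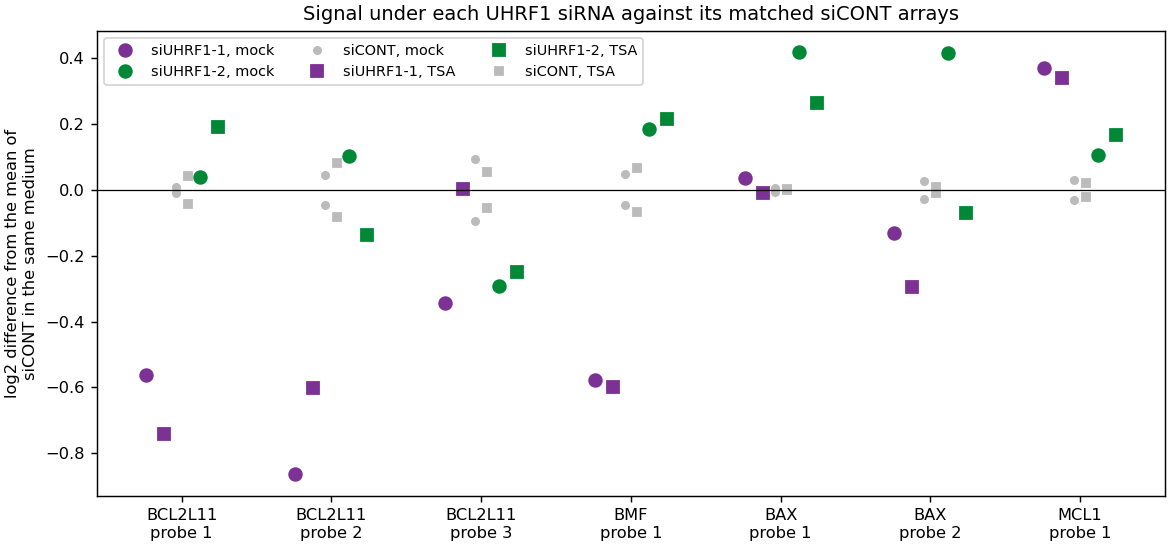
Log2 difference of each UHRF1-depleted array from the mean of the siCONT arrays in the same medium (y axis), for the probes of BCL2L11, BMF, BAX and MCL1 (x axis), with colours for the siRNA, symbols for mock or TSA and the siCONT arrays in grey. The siUHRF1-1 symbols lie below those of siUHRF1-2 for the first and second BCL2L11 probes and for BMF, while MCL1 lies above 0 with both siRNAs.

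UHRF1 itself was depleted by both siRNAs, and its log2 level under siUHRF1-1 differed from that under siUHRF1-2 by 0.11 and 0.28 in its 2 probes (adjusted p = 0.732 and 0.491). Over all gene names 14.0% differed between the siRNAs, 12.0% between siUHRF1-1 and siCONT and 15.8% between siUHRF1-2 and siCONT, so the 3 of 10, 3 of 10 and 1 of 10 members called stand beside a broad difference between these arrays. Each siRNA had its own slide column, and siRNA and column cannot be told apart. The call of BCL2L11 between the siRNAs was lost with normexp background correction (-0.68, adjusted p = 0.119) and with spike-in scaling (-0.49, adjusted p = 0.0864), and that of BMF with normexp (-0.43, adjusted p = 0.43). The BAX call was lost with normexp (-0.30, adjusted p = 0.503), with spike-in scaling (-0.050, adjusted p = 0.769) and without any 1 of the 8 arrays (adjusted p between 0.0521 and 0.12). Against siCONT, the BCL2L11 call of siUHRF1-1 was lost without siCONT replicate 1 or 2, siCONT + TSA replicate 1 or 2 or siUHRF1 + TSA replicate 1 (adjusted p between 0.0518 and 0.0559), and the BMF call without siUHRF1 + TSA replicate 1 (adjusted p = 0.0551). The calls of MCL1 with siUHRF1-1 and of BAX with siUHRF1-2 were lost without any 1 of the control arrays or either array of the siRNA compared (adjusted p between 0.0615 and 0.0771 for MCL1 and between 0.062 and 0.0834 for BAX), and all 4 calls against siCONT were lost with normexp and with spike-in scaling.

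On the 5-aza-dC array 5 of 10 members were called against siCONT, with BIK and BAX higher and BCL2L1, HRK and PMAIP1 lower, where 24.8% of all gene names were called higher and 24.1% lower. BCL2L1 was at -0.41 on that array, against 1.35 and 1.41 in siCONT, which is 3.47-fold lower (log2 fold change -1.79, SE 0.144, adjusted p = 0.000298). HRK was at 0.95 and 2.85-fold lower (-1.51, SE 0.194, adjusted p = 0.00173), and PMAIP1 at 1.5 and 1.95-fold lower (-0.97, adjusted p = 0.00323). All 3 were below every siCONT array, and BCL2L1 and HRK were below all 8 siRNA arrays. BIK was at 0.38 and 2.51-fold higher (1.33, SE 0.118, adjusted p = 0.00045), above all 8 siRNA arrays. BAX was at 4.76 and 1.78-fold higher (0.83, SE 0.195, adjusted p = 0.0157), and its second probe differed by 1.05 (adjusted p = 0.0133). By its brightest probe BCL2L11 was at 2.47, the highest of the 9 arrays, without passing the test (0.72, adjusted p = 0.195). Its dimmer probes did not share this rise. The probe at chr2:111878705-111878764 was at 0.25, below both siCONT arrays (0.47 and 0.56), a log2 difference of -0.27. The probe at chr2:111886352-111886411 differed by 0.088. BAK1 was at 2.83 (0.45, adjusted p = 0.0613), BBC3 at 3.40, MCL1 at 1.84 and BMF at -2.36.

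This comparison rests on 1 array, whose spread was taken from the other groups. It lay on another slide, was read in another scan and held untransfected cells, so that slide, scan, drug and transfection cannot be told apart. Its directions depend on the scale. With spike-in probes as the scale the median of all probes was -1.87 instead of 0.0122, and BIK (-0.56), BAX (-1.05), BAK1 (-1.44) and BCL2L11 (-1.17) were lower than in siCONT. BCL2L1, HRK and PMAIP1 stayed lower and called in all 18 refits run for 5-aza-dC, and relative to the other genes BIK and BAX stayed higher in the remaining 17, where BAX lost its call without siCONT replicate 1 or 2 (adjusted p = 0.0595 and 0.0614).

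**Figure D5:**
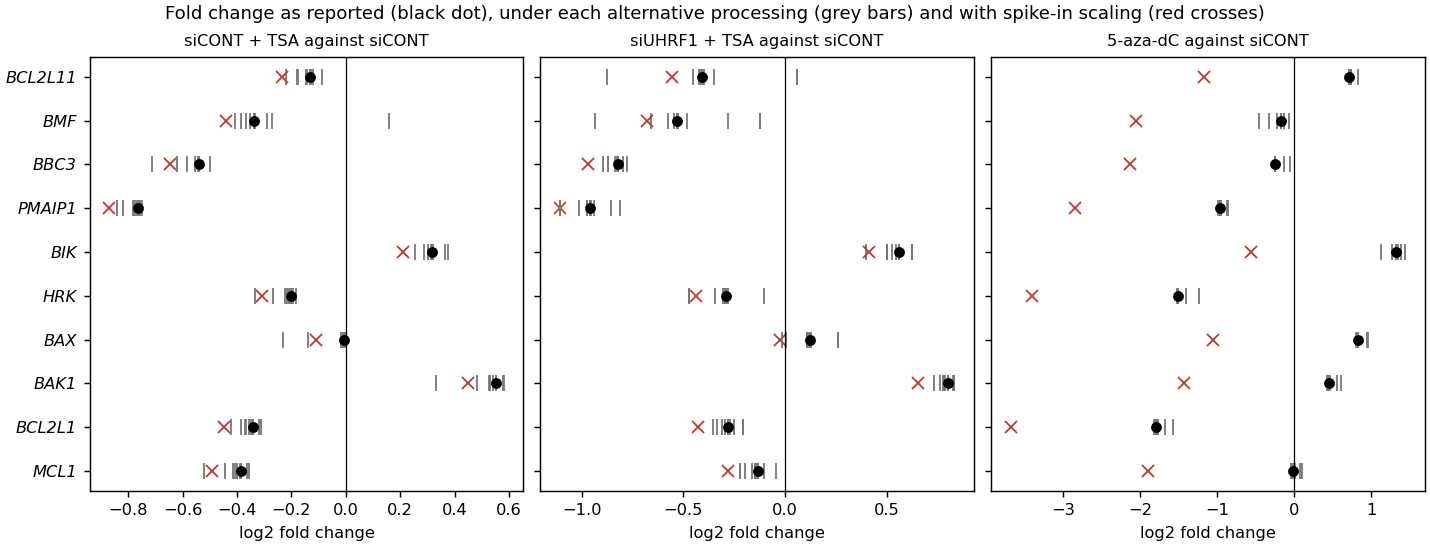
Log2 fold change of each member (x axis) as reported (black dots), under each alternative processing or left-out array (grey bars) and with scaling on the spike-in probes (red crosses), in a panel for each comparison with siCONT. The marks of PMAIP1, BBC3 and BAK1 stay on 1 side of 0 in both TSA panels, whereas spike-in scaling moves every member to the left in the 5-aza-dC panel, where the median of all probes moved to -1.87.

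Other genes of the apoptosis pathway were followed in 5 lists. In siUHRF1 + TSA against siCONT 16.1% of all gene names were called higher and 8.08% lower, as given above, and the counts in these short lists stand beside those shares as a description, with nothing read from them as particular to a list. Of the 12 other BCL2 family genes tested, 2 were called higher and 1 lower, and 1 of the 2, BNIP3, passed the filter on dim probes through its level in siUHRF1 + TSA alone. Their median log2 fold change was 0.211, where that of all gene names was 0.0671. BCL2L15 encodes a little-studied member of the family and gave -3.96 and -3.85 in siCONT, -4.06 and -3.81 in siUHRF1, -2.80 and -2.62 in siCONT + TSA and -3.06 and -2.78 in siUHRF1 + TSA, a rise of 0.98 over siCONT (SE 0.148, adjusted p = 0.00709). BCL2, the founding anti-apoptotic member, was at -1.70 and -1.57 in siCONT and at -2.32 and -2.12 in siUHRF1 + TSA, and it fell by 0.59 (adjusted p = 0.0229). BNIP3, a mitochondrial member that is known as a hypoxia target and is silenced by methylation in some tumours, was well above background on the 2 siUHRF1 + TSA arrays and on no other siRNA array. It gave -6.40 and -6.31 in siCONT, -6.56 and -4.55 in siUHRF1, -6.19 and -6.11 in siCONT + TSA and -3.02 and -2.58 in siUHRF1 + TSA, and it was at 3.01 on the 5-aza-dC array. These levels are a description, with no test, because the probe was tested only through the group in which it was high. With normexp background correction its log2 difference between siUHRF1 + TSA and siCONT was 0.83 in place of 3.56, so no fold is given.

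Among 15 genes of the apoptosome and caspases, 2 rose and 0 fell by limma in siUHRF1 + TSA against siCONT, near or below the shares of all gene names, with a median of 0.178. These were CASP6, an executioner caspase (0.44, adjusted p = 0.0253), and DFFA, the inhibitor of the apoptotic nuclease (0.52, adjusted p = 0.0372). Of 7 inhibitors of apoptosis tested, BIRC5 (survivin, which also serves in mitosis) rose by 0.99 (adjusted p = 0.0062), from 5.13 on both siCONT arrays to 5.99 and 6.24, and the other 6 were not called. Of 8 death receptor and ligand genes tested, the adaptor TRADD (1.05, adjusted p = 0.00217) and the kinase RIPK1 (0.62, adjusted p = 0.0167) rose, and the receptors FAS (-0.61, adjusted p = 0.00793) and TNFRSF10B (-0.51, adjusted p = 0.0124) fell.

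The regulators of the BCL2 family gave 1 higher and 2 lower of 14. DDIT3 encodes CHOP, a transcription factor of the endoplasmic reticulum stress response that is known to act on BCL2 family genes. It gave 3.05 and 3.06 in siCONT, 3.03 and 2.87 in siUHRF1, 1.19 and 1.29 in siCONT + TSA, 0.95 and 0.24 in siUHRF1 + TSA and 0.028 on the 5-aza-dC array. The TSA arrays were below all mock arrays, with a log2 fold change of -2.46 in siUHRF1 + TSA against siCONT (SE 0.224, adjusted p = 0.00151), -1.82 in siCONT + TSA against siCONT (adjusted p = 0.0116) and -2.36 in siUHRF1 + TSA against siUHRF1 (adjusted p = 0.00332). Its part in the fall of PMAIP1 and BBC3 was not tested. ATF4, which acts upstream of DDIT3 in that response, fell by 0.56 in siUHRF1 + TSA against siCONT (adjusted p = 0.0346). DYNLL2, the dynein light chain that holds BMF, rose by 0.75 (adjusted p = 0.0437). Leaving BNIP3 aside, the 12 genes named from the 5 lists kept their direction in every refit, but only DDIT3, TRADD and BIRC5 also kept their call in all 20. With normexp background correction the other 9 were no longer called, and BCL2L15 went from 0.98 to 0.35 and BCL2 from -0.59 to -0.26. Without siCONT replicate 1 the same 9 lost their call, and without siCONT replicate 2 all of these except BCL2L15. Without siUHRF1 + TSA replicate 1, BCL2, CASP6, DFFA, ATF4 and DYNLL2 were not called, and without siUHRF1 + TSA replicate 2, CASP6, DFFA, RIPK1, ATF4 and DYNLL2. Without either siCONT + TSA array, CASP6, DFFA, ATF4 and DYNLL2 lost their call as well. Scaling on the spike-in probes ended the calls of BCL2, CASP6, DFFA and RIPK1, and leaving out the filter on dim probes those of BCL2, CASP6, DFFA, ATF4 and DYNLL2. The replicate block ended that of ATF4, and leaving out both siUHRF1-1 arrays that of BCL2.

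The gene names whose pattern over the 8 siRNA arrays was most like that of a member were found by the root mean square difference of log2 signals, each set against its own siCONT mean, among 15634 gene names well above background on all 8 arrays. Closest to PMAIP1 were GPT2 (0.0695), HSPBAP1 (0.0991) and FAM107B (0.0998), where the median over all gene names was 0.699. Closest to BBC3 were ECI1 (0.0565), EXOSC8 (0.0609) and CENPP (0.0668), with a median of 0.568. Closest to BAK1 were SURF1 (0.0407), a probe without a gene symbol (0.0445) and SARS2 (0.0486), with a median of 0.49.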

How the data were processed

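The authors hybridized total RNA of RKO cells to Agilent SurePrint G3 Human GE v2 arrays and deposited, for each array, the scanner output of Feature Extraction 10.7.3.1 as a linear intensity per spot, background-subtracted and not normalized between arrays. GeneSpring GX is named in the study's methods, whose normalization and filter for these arrays are not given in the sources used here.

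Here the deposited intensity was taken to log2 and shifted by the 75th percentile of the array. Spots marked as outliers were left out and spots of a probe averaged. A probe was tested when over 0.5 of its spots were well above background on all arrays of at least 1 group. limma 3.58.1 (R 4.3.3, lmFit and eBayes, Benjamini-Hochberg adjusted p below 0.05) was fitted to the 8 siRNA arrays with group as the term, or to all 9 arrays for 5-aza-dC, and the procedure was tested on simulated data. The simulated arrays were independent and had the same spread in every group, so that test does not cover the unequal spreads of these groups. A gene stood for its brightest probe, the one of highest mean over the 8 arrays. Probe positions and transcripts are those of the array files (hg19), and exon positions were not looked up. Promoters came from RefSeq (GRCh38.p14) and were counted in Python 3.11.15. No interval here covers more than the spread between arrays.

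All members, and UHRF1, were named whatever they showed. From the other lists, genes were named when called in siUHRF1 + TSA against siCONT without overlap, at most 6 a list by lowest p. The members and lists were chosen with earlier results of these data known. The siRNA comparison, the fits without both siUHRF1-1 arrays and the refits of the list genes were added after the values were seen. Alternatives were normexp background correction (offset 50), quantile, median and spike-in scaling, other filters, outlier spots kept, a replicate block, the values of the deposited table, fewer arrays, a robust prior, other thresholds and the methods' t-test.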

Additional observations from a re-analysis of the deposited data

Results flagged for a closer look

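The effect of UHRF1 depletion on PMAIP1 pointed in opposite directions without and with TSA. Both siUHRF1 arrays were above the siCONT mean (0.20 on the log2 scale) and both siUHRF1 + TSA arrays below that of siCONT + TSA (-0.19), and the difference between the effects was -0.39 (SE 0.168, unadjusted p = 0.0573, adjusted p = 1 from limma). BIK showed the reverse in sign only, with -0.032 without TSA, 0.25 with TSA and a difference of 0.278 (SE 0.136, unadjusted p = 0.0854, adjusted p = 1). Without TSA its siUHRF1 arrays (-0.98 and -0.98) lay between the siCONT arrays (-1.01 and -0.89). Neither difference passed the test, and with normexp background correction the PMAIP1 effect with TSA was -0.0145.

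The 2 siRNAs against UHRF1 differed in 3 members by limma's test of the difference, where 14.0% of all gene names differed. This comparison was chosen after the values were seen, and with normexp background correction 0 members were called. The log2 level with siUHRF1-1 minus that with siUHRF1-2 was -0.768 for BCL2L11 (adjusted p = 0.012), -0.787 for BMF (adjusted p = 0.00804) and -0.327 for BAX (adjusted p = 0.0329). No group had more than 2 arrays, so single arrays could not be judged as outliers within their group.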

How the results depend on the processing

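Precision is limited by 2 arrays in a group and 1 for 5-aza-dC. Of the 16 member fold changes called in the 7 planned comparisons, 261 of 310 refits kept sign and call, 47 lost the call and 2 changed sign. Of the 54 not called, 966 of 1060 refits kept sign and side, 29 came to pass and 65 changed sign, and of these 65 only BCL2L11 and BAK1 for 5-aza-dC under spike-in scaling passed the test. Of the 7 calls between siRNAs or of an siRNA against siCONT, 39 of 84 refits lost the call and 0 changed sign. The causes were not tested.

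The number of members called in siCONT + TSA against siCONT (3) was 0 without a filter on dim probes and with spike-in scaling, 1 with normexp, 8 with only the arrays compared and without both siUHRF1-1 arrays, 6 at an unadjusted p below 0.05, 0 when a change over 2-fold was also asked, 7 by the methods' t-test unadjusted, and 0 to 4 with 1 array left out. In siUHRF1 + TSA against siCONT (4) it was 0 over 2-fold, 0 by the adjusted t-test and 2 to 4 with 1 array left out. It was, for siUHRF1 + TSA against siUHRF1 (4), 2 with normexp and with spike-in scaling, 1 with only the arrays compared, 1 over 2-fold, 0 by the adjusted t-test and 2 to 5 with 1 array left out. For siUHRF1 + TSA against siCONT + TSA (0) it was 2 at an unadjusted p below 0.05, 2 by the unadjusted t-test and 1 without both siUHRF1-1 arrays. In siUHRF1 against siCONT (0) the unadjusted t-test gave 1. The difference between the effects gave 0 in all 22 alternatives. For 5-aza-dC (5) it was 9 with spike-in scaling, 3 over 2-fold and 8 without both siUHRF1-1 arrays.

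The counts over all probes also moved with the setting. In siCONT + TSA against siCONT, limma called 2470 of 23727 probes as reported and 9928 with only the arrays compared. Normexp gave 420 probes there and spike-in scaling 787. At an unadjusted p below 0.05, 6867 passed in limma and 9810 in the methods' t-test. For 5-aza-dC the median log2 fold change of all probes was -1.87 with spike-in scaling. Between the siRNAs (3) normexp gave 0 members, and 81 probes in place of 3242. For siUHRF1-1 against siCONT (3) normexp and spike-in scaling gave 0, and 1 array left out gave 0 to 3. For siUHRF1-2 against siCONT (1) both gave 0, the median shift gave 2, and 1 array left out gave 0 to 2, and spike-in scaling turned BCL2L11 to -0.036.

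Among the fold changes printed in the report, signs turned for several, the other turns being of uncalled values within the counts above. For 5-aza-dC under spike-in scaling these were BCL2L11 (-1.17), BIK (-0.56), BAX (-1.05) and BAK1 (-1.44). Without both siUHRF1-1 arrays, chosen after the data were seen, BCL2L11 was 0.039 and BMF 0.19 in siUHRF1 against siCONT, and BCL2L11 was 0.061 in siUHRF1 + TSA against siCONT. With 1 array left out these 3 ranged from -0.56 to 0.039, from -0.58 to 0.19 and from -0.87 to 0.061, turning positive without the siUHRF1-1 array of the group.

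With the replicate number as a block, siCONT + TSA against siCONT gave 1 member (PMAIP1), where BBC3 and BAK1 had an adjusted p of 0.0545 and 0.0586, and no other count of members changed. Deviations of same-numbered arrays correlated at 0.466 between siUHRF1 and siUHRF1 + TSA, where the number marks the siRNA, and between -0.0473 and 0.0796 for the other pairs of groups, so the number does not pair the control arrays.

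Of the probes called in siUHRF1 + TSA against siCONT 64.5% were higher, 52.9% under quantile normalization and 52.1% under spike-in scaling. In siCONT + TSA against siCONT these shares were 62.1%, 53.7% and 48.3%, and in siUHRF1 + TSA against siUHRF1 64.3%, 51.4% and 49.5%. For 5-aza-dC they were 49.3% and, under spike-in scaling, 7.03%.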
